A study of Drosophila melanogaster with 6 samples.

Results

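Topologically associating domains (TADs) are stretches of chromosome that contact themselves more often than their surroundings in Hi-C, an assay that ligates and sequences DNA ends lying close together in the nucleus. Narrow autosomal TADs were taken as the rows of the pooled eye disc and pooled antennal disc TAD lists that are under 50 kb wide, lie on 2L, 2R, 3L or 3R, and fall outside 2L from 20.5 Mb, 3L from 22 Mb and 3R below 5 Mb. There were 205 of them among 2334 pooled TADs, 88 in the eye list of 1122 TADs and 117 in the antennal list of 1212. On the same stretches the lists held a further 697 and 742 wider TADs. The members were selected on their width in the pooled lists, so their widths are a description and were not tested. The count of TADs under 50 kb in each library's own list was compared between the tissues.

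The eye and antennal discs are the joined larval epithelia that give rise to the compound eye and the antenna of the fly. The discs came from third-instar larvae, all with the genotype yw;+;+, so no allele or treatment separates them. Eye discs in 3 replicates and antennal discs in 3 replicates were cut apart by hand, with 125 discs per replicate, and each library therefore pools many animals. TAD lists of 3 eye disc libraries (1, 2 and 3) and of 2 antennal disc libraries (2 and 3) were used beside the pooled lists, which are labelled as made from all replicates. Antennal disc library 1 itself was not analysed here. All positions are on the dm6 genome. These lists hold positions only, so depth is unknown, and nothing in the labels says whether replicates were dissected on separate occasions. Eye disc library 1 and antennal disc library 3 stood apart in listing no TAD on chromosome 4, and results are also given without this pair.

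In flies, TADs are small and numerous. Their borders often lie at the promoters of broadly active genes, where insulator proteins such as BEAF-32, CP190 and Chromator bind. Inactive genes and genes under Polycomb control tend to occupy longer domains. A narrow TAD can hold a cluster of short, broadly used genes, a single long regulated gene, or a part of one.

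The narrow TADs made up 11.2% of the autosomal TADs of the pooled eye list and 13.6% of those of the pooled antennal list. They covered 3.225 Mb and 4.285 Mb, which was 3.46% and 4.59% of the sequence in TADs. Their median width was 35 kb in each list, against 105 kb for all autosomal eye TADs and 95 kb for all autosomal antennal TADs. All borders fell on multiples of 5 kb, taken here as the bin, and no TAD was under 25 kb. At 25, 30, 35, 40 and 45 kb there were 9, 13, 23, 26 and 17 eye TADs, and 8, 23, 33, 29 and 24 antennal TADs. Just outside the limit, at 50 kb, there were 35 eye and 29 antennal TADs. The counts thus ran on past 50 kb with no gap in the widths.

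**Figure D1:**
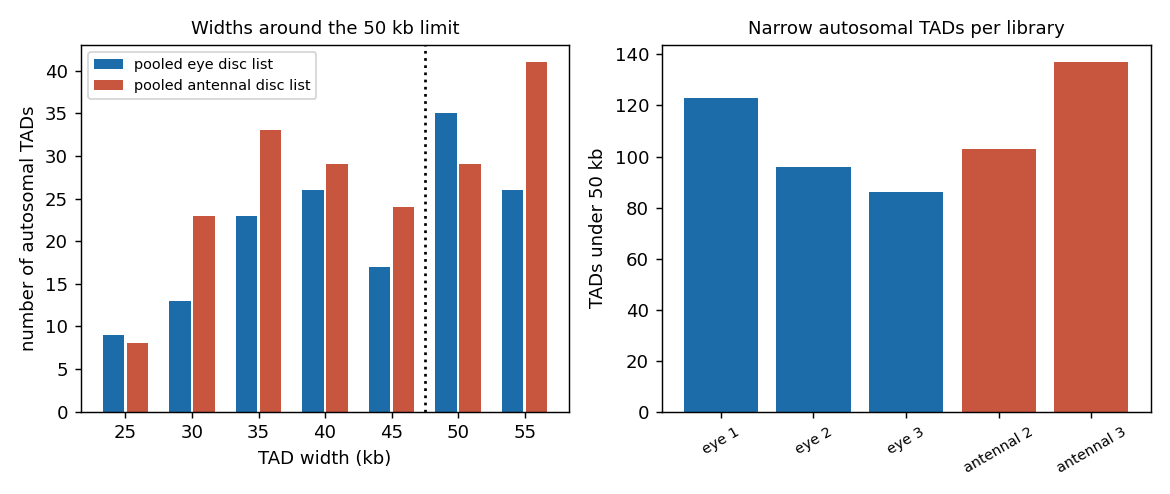
Left, number of autosomal TADs at each width from 25 to 55 kb in the pooled eye (blue) and antennal (red) lists, with the 50 kb limit dotted. Right, number of narrow TADs listed in each library, where antennal disc library 3 has the most at 137 and eye disc library 3 the fewest at 86.

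The arms differed in their share of narrow TADs, and differently in the lists. In the eye list 14 of the members lay on 2L, 17 on 2R, 22 on 3L and 35 on 3R, where they were 15.1% of the arm's TADs. In the antennal list 24 lay on 2L, 29 on 2R, 34 on 3L, where they were 16.7% of TADs, and 30 on 3R. The libraries listed 123, 96 and 86 narrow TADs in eye discs 1, 2 and 3, against 103 and 137 in antennal discs 2 and 3. The tissues overlapped, with eye disc 1 above antennal disc 2. Eye disc libraries averaged 102 ± 19.1 (SD, n = 3) and antennal disc libraries 120 ± 24.0 (SD, n = 2), a difference of -18.3 that an exact two-sided permutation test over the libraries did not separate (p = 0.4, adjusted p = 0.56 over 7 tests). With 3 against 2 libraries that test cannot give a p below 0.2. Without antennal disc library 3 the difference was -1.33, without antennal disc library 2 it was -35.3, without eye disc library 1 it was -29, and without eye disc library 1 and antennal disc library 3 together it was -12.

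The rule trims the centromere-near ends of 2L, 3L and 3R but leaves 2R whole, and the start of 2R held members of another kind. In its first 7 Mb lay 8 eye and 15 antennal narrow TADs with 2 and 3 protein-coding genes in all, or 0.656 and 0.594 per 100 kb. Wider TADs there held 2.72 and 2.83 per 100 kb, so the whole stretch was gene-poor. A member there had a counterpart in a median of 1.5 libraries in the eye list and 1 in the antennal list, against a median of 3 elsewhere in each list. Eye disc library 1 listed a single TAD of 2365 kb over part of this stretch. This stretch was singled out after the values were seen, and results are given with and without it where it matters.

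The narrow TADs as a whole held more genes per length than wider TADs, and fewer per TAD. Counting each gene at its midpoint, the 88 eye members held 562 protein-coding genes and the 117 antennal members 606, which was 5.04% and 5.43% of the protein-coding genes on these stretches. A narrow TAD held a median of 6 protein-coding genes in the eye list and 4 in the antennal list, against 14 and 13 in wider TADs, with at most 17 and 15. No protein-coding midpoint lay in 8 eye members (9.09%; 2.93% of all eye TADs) and 14 antennal members (12.0%; 3.84% of all antennal TADs). Outside the first 7 Mb of 2R only 2 members of each list were without one. A single gene was held by 10 eye and 15 antennal members, of which 2 and 3 lay in the first 7 Mb of 2R. Members with 10 or more genes numbered 25 in each list. Of the 697 and 742 wider TADs, 25 and 28 held a single gene, and 467 and 476 held 10 or more.

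Per 100 kb the eye members held 17.4 protein-coding genes and the antennal members 14.1, against 11.7 and 11.8 in wider TADs of those lists. In the libraries' own lists, narrow TADs held 15.1, 15.8 and 17.6 per 100 kb in eye discs 1, 2 and 3, and 13.8 and 15.3 in antennal discs 2 and 3. Wider TADs held between 11.7 and 11.9 in the same 5 libraries, so narrow TADs were denser in every library. The difference averaged 3.73 ± 1.43 genes per 100 kb (SD, n = 5) and was above 0 in 5 of 5 libraries, and the exact two-sided sign-flip permutation test over libraries gave p = 0.0625, the smallest it can give, and an adjusted p of 0.438 over 7 tests. It was 4.40 ± 1.36 in eye discs (n = 3) and 2.72 ± 1.04 in antennal discs (n = 2), a difference of 1.68 that was not separated by the exact permutation test (p = 0.4, adjusted p = 0.56). That tissue difference was 0.934 without eye disc library 3 and 0.947 without antennal disc library 2. Without the pair of libraries that lack chromosome 4, narrow TADs exceeded wider ones by 3.98 genes per 100 kb over 3 libraries, and the tissue difference was 2.99.

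**Figure D2:**
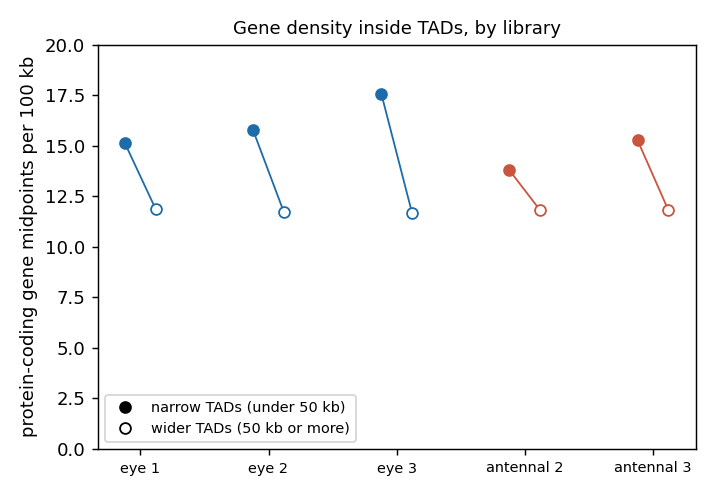
Protein-coding gene midpoints per 100 kb in narrow (filled) and wider (open) autosomal TADs of each library, joined by a line. The filled point lies above the open one in all 5 libraries, by the least in antennal disc library 2.

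The comparison depended on which wider TADs were used, and density changed step by step with width. In the pooled eye list it was 19.8 genes per 100 kb at 25 to 30 kb, 16.9 at 35 to 45 kb, 16.4 at 50 to 70 kb, 13.7 at 75 to 95 kb and 9.36 at 200 kb or more. In the pooled antennal list the same classes held 12.6, 14.6, 16.1, 13.3 and 9.43, so that TADs just above the limit were denser than the narrow ones. With the first 7 Mb of 2R left out the antennal classes held 16.8, 15.8, 16.8, 15.4 and 9.79. Against TADs of 50 to under 100 kb alone, the difference in the libraries was 1.23 genes per 100 kb (exact sign-flip p = 0.125), and with the centromere-near stretches kept it was 1.88. TADs of exactly 45 kb held 16.3 genes per 100 kb in the eye list and 16.9 in the antennal list, and those of exactly 50 kb held 17.9 and 18.8. Gene density therefore showed no step at the limit.

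**Figure D3:**
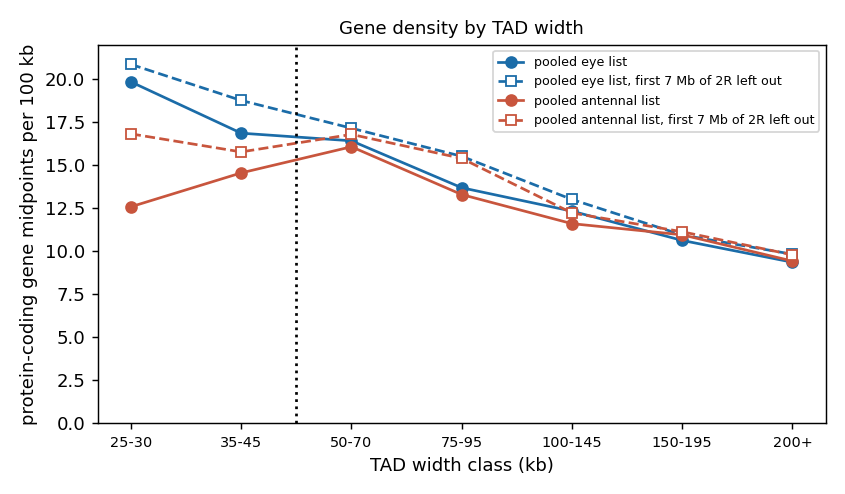
Protein-coding gene midpoints per 100 kb in autosomal TADs of 7 width classes, for the pooled eye (blue) and antennal (red) lists, with the first 7 Mb of 2R kept (solid) or left out (dashed) and the 50 kb limit dotted. Beyond 50 to 70 kb the lines fall together to between 9.36 and 9.83 at 200 kb or more, and below it the antennal line with 2R whole is the lowest.

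Genes inside narrow TADs had a median length of 2.3 kb in the eye list and 2.64 kb in the antennal list, against 2.08 and 2.06 kb in wider TADs. Borders of narrow TADs lay inside a protein-coding gene in 71.6% of eye and 70.9% of antennal cases, against 70.2% and 71.4% for wider TADs. With the gene-poor start of 2R left out, the shares were 77.5% and 77.5% for narrow TADs, against 72.5% and 74.0% for wider TADs. Narrow TADs then had the higher share in each list. A whole narrow TAD lay within a single gene in 2 eye and 14 antennal members. The antennal ones included TADs within *DIP-lambda* and *CG17684* in the start of 2R, and adjacent TADs within *CG33158*. The share of wider TADs within a single gene was not counted, so these counts cannot be called high or low. Neither the difference between the lists nor the comparisons with wider TADs were tested.

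Genes used by every cell were present in the narrow TADs at shares on either side of the background. Of 72 genes with symbols of cytosolic ribosomal proteins, 7 (9.72%) lay in eye members and 4 (5.56%) in antennal members. *RpL19* was in each list and *RpS25* and *RpL3* in the eye list. The 7 also included *RpL24-like*, which was taken by its symbol alone. Of 62 genes for the respiratory chain and ATP synthase, 6 lay in eye members and 7 in antennal members, and these shared *ND-PDSW* and *ND-B14*, subunits of complex I, and *ATPsynB*, a subunit of the ATP synthase. Of 61 mitochondrial ribosomal protein genes, 3 and 2 lay in members, *mRpL12* and *mRpS10* in each list. Of 42 proteasome genes, none lay in an eye member and *Rpn3*, for a lid subunit, lay in an antennal one. All these counts stand beside the background of 5.04% and 5.43% of protein-coding genes and were not tested.

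MicroRNA genes lay in narrow TADs at more than the background share. Of 188 on these stretches, 26 (13.8%) lay in eye members and 21 (11.2%) in antennal members, 16 of them in each, against 4.98% and 5.27% of genes of all kinds. They occurred at 0.806 and 0.490 per 100 kb in narrow TADs, against 0.178 and 0.187 in wider TADs, and were spread over 19 eye and 17 antennal members. Several of these genes are well studied, and the following were picked after their values were seen. The cluster of *mir-100*, *mir-let7* and *mir-125*, whose products time the larval to adult transition, lay in a 40 kb eye TAD at chr2L:18445001-18485000 and a 35 kb antennal TAD that starts 5 kb further on. TADs with both borders within 5 kb of the eye member were listed in 4 of 5 libraries. *mir-ban*, the growth-promoting bantam microRNA, lay with *Reg-2* in a 40 kb eye and a 45 kb antennal TAD at chr3L:605001-645000 in the eye list. *mir-11* and *mir-998*, which lie within the span of *E2f1*, had their midpoints in the neighbouring *InR* TAD of the eye list because the border there cuts *E2f1* less than 1 bin from its end.

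Transfer RNA genes ran the other way. A single one of 267 lay in an eye member and 3 in antennal members, or 0.0310 and 0.0700 per 100 kb, against 0.289 and 0.293 in wider TADs. Of 217 small nucleolar RNA genes, 9 lay in eye members and 3 in antennal members, beside a background of 4.98% and 5.27% of genes of all kinds. Genes annotated as such occurred at 0.310 and 0.0933 per 100 kb in narrow TADs, against 0.239 and 0.245 in wider TADs, so the lists ran in opposite directions. Of the 9, *snoRNA:lola-a*, *snoRNA:lola-b*, *snoRNA:lola-c* and *snoRNA:lola-d* were in the same eye TAD, so this count rests on few regions. Long noncoding RNA genes occurred at 1.49 and 1.26 per 100 kb in narrow TADs, against 1.68 and 1.70 in wider TADs.

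Among gene families with restricted expression, several had no member in a narrow TAD and others had members in 1 or more TADs. Their counts, and those of the heat shock genes, stand beside the same background of 5.04% and 5.43% of protein-coding genes and were not tested. None of 51 odorant receptor genes, 54 ionotropic receptor genes, 25 Osiris genes, which act in cuticle, or 8 Hox genes had its midpoint in a narrow TAD of either list, and neither did any of 11 Enhancer of split genes, the Notch targets. Of 52 gustatory receptor genes, 8 (15.4%) lay in eye members and 5 (9.62%) in antennal members, mostly as neighbours. *Gr93a*, *Gr93b*, *Gr93c* and *Gr93d* shared a TAD in each list, *Gr98b*, *Gr98c* and *Gr98d* shared an eye TAD, *Gr22f* was in an eye member and *Gr32a* in an antennal one. Of 109 cuticular protein genes, 3 lay in eye members, *Cpr51A*, *Cpr66Cb* and *Cpr67B*, and 4 in antennal members. Of 45 odorant binding protein genes, *Obp28a* and *Obp69a* were in each list. Of 139 genes for detoxification enzymes, none lay in an eye member and 4 in antennal ones, with *Cyp6g1*, a P450 linked to insecticide resistance, beside *Cyp6g2* and *Cyp6t3*. *Jon66Ci* and *Jon66Cii*, of 16 Jonah digestive proteases, were neighbours in a TAD of each list.

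Of 12 heat shock genes, 4 lay in eye members, *Hsp23* and *Hsp27* in one, *Hsp70Aa* and *Hsp70Ab* in another, and none in antennal members. The difference for *Hsp23* and *Hsp27* was a matter of 1 bin, since their TAD was 45 kb wide in the pooled eye list and 50 kb in the pooled antennal list. *Hsp70Aa* and *Hsp70Ab* are near-identical copies, where reads can be hard to place, and their 25 kb TAD was found in eye disc library 3 alone, while TADs over it in the other libraries were 105 to 110 kb.

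Lists of disc regulators were short, and their counts are too small to set against the background. None of the 7 retinal determination genes on these stretches lay in a narrow TAD, and of 7 antennal identity genes *hth* alone did, in the antennal list. Of 14 signalling ligand genes, *spi*, an EGF receptor ligand, and *hh*, the Hedgehog ligand, lay in eye members, and *hh* in an antennal member. Of 12 insulator protein genes, 3 lay in members of both lists, *mod(mdg4)*, *Cp190* and *ZIPIC*.

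The members with the most protein-coding genes were named by their count. In the eye list the highest count was 17 genes in 30 kb at chr3R:11215001-11245000, which included *RpS25* and *RpL3*, ribosomal proteins, *GCC88* and the *scpr* genes *scpr-A*, *scpr-B* and *scpr-C*. That TAD was 35 kb in eye disc library 3, and the TADs over it in eye discs 1 and 2 were 180 and 185 kb, and in antennal discs 2 and 3 they were 135 and 130 kb. A 45 kb eye TAD at chr3L:180001-225000 held 16 genes, with *Mkp*, *Mtch*, *rno* and *mri*, and a 40 kb eye TAD at chr3R:9550001-9590000 also held 16, with *RnpS1*, *BckdhA*, *AP-1mu*, *MBD-like*, *Vps45* and *Kap-alpha3*. The first of these 3 had a counterpart in 1 library, the next in 3 and the last in 1. In the antennal list 15 genes lay at chr3L:8955001-9000000, with *GNBP3*, *mRpL12*, *ValRS-m*, *pix*, *Srp68* and *Galk*, in a 45 kb TAD with the same borders in the pooled eye list. A 35 kb antennal TAD at chr2R:11265001-11300000 held 14, with the cuticular protein genes *Cpr47Ee*, *Cpr47Ef* and *Cpr47Eg*, the troponin gene *TpnC47D* and *Vhl*. It was 35 kb in antennal disc library 3, whereas antennal disc library 2 had 100 kb there and the eye discs 130, 100 and 120 kb. The last of the antennal set was at chr3R:15205001-15245000, also with 14 genes, and is described with the runs.

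At the other end were narrow TADs without a protein-coding midpoint, some of them over an end of a long gene. A 25 kb TAD at chr2L:12525001-12550000, with the same borders in each pooled list, covered one end of *bun*, a TSC-22 family gene of 91.1 kb at chr2L:12455540-12546611, and held no protein-coding midpoint. It was 25, 25 and 35 kb in eye discs 1, 2 and 3, and 30 kb in antennal disc 2, whereas antennal disc 3 had a TAD of 165 kb there. A 45 kb antennal TAD at chr2L:4015001-4060000 covered one end of *ed*, for the cell adhesion protein Echinoid, and was 50 kb in the pooled eye list. The remaining members without a protein-coding midpoint that the naming rule took were at chr2R:325001-370000 and chr2R:1795001-1830000 in the eye list and chr2R:450001-480000 in the antennal list, all in the gene-poor start of 2R, and none of these 3 was found in a library. Among the narrowest members, at 25 kb, were the eye TAD at chr2L:5520001-5545000 with 11 genes, *cl*, *Vps52*, *Elp4*, *Cap-D3*, *Cox11* and *Coq6* among them, and the antennal TAD at chr2L:225001-250000 wholly within *kis*, a gene for a chromatin remodeller. Both were weakly held, the first in 2 libraries, both eye discs, and the last in 1.

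Narrow TADs stood mostly alone. In the eye list 63 were single, 11 pairs were adjacent and 1 run had 3, so 25 members (28.4%) were in runs. In the antennal list 82 were single, 13 pairs were adjacent and 3 runs had 3, so 35 members (29.9%) were in runs. The next TAD was narrow for 15.1% of eye members, against 10.9% of all eye TADs, and for 16.2% of antennal members, against 13.4% of all antennal TADs. In the libraries the share was 13.2, 13.8 and 12.8% in eye discs 1, 2 and 3, and 13.9 and 18.8% in antennal discs 2 and 3. It exceeded that library's own share over all TADs in 4 of 5 libraries, by 1.81 ± 1.41 percentage points (SD, n = 5), which the exact sign-flip permutation test did not separate from 0 (p = 0.125, adjusted p = 0.438). With narrow set at under 40 kb the difference was -1.55 and at under 60 kb it was -0.0766, so its direction rested on the limit. Without eye disc 1 and antennal disc 3 it was 1.88. Of the 12 eye runs 8 were on 3R and 9 had every TAD in the antennal list, and of the 16 antennal runs 7 were on 3R and 7 had every TAD in the eye list. Arm 3R held 35 of the 88 eye members and 30 of the 117 antennal members. How often neighbouring TADs of any width are held together in the other list was not counted, and neither count of runs was tested.

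The only run of 3 in the eye list, which the antennal list held with the same borders, had TADs of 30, 45 and 40 kb at chr3R:24550001-24665000 and 14 protein-coding genes. The first held *Esyt2* and *REPTOR*, for a transcription factor repressed by TORC1, the middle one *mld*, which is needed for ecdysone synthesis, and *Syx18*, and the last *atl*, *Wsck*, *MtnF*, *puf*, *ash2*, a Trithorax group gene, and *Ppox*. Eye discs 2 and 3 and antennal disc 3 had all 3 within 5 kb. Eye disc 1 and antennal disc 2 each had a TAD of 80 kb over the first pair and a TAD of 35 and 40 kb over the last, so the border not called was the one between the first TAD and the middle one, which lies inside *REPTOR*.

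The other runs taken by the naming rule were unlike each other. An eye run at chr2L:8085001-8170000 held 12 genes, with *Bsg* and *mon2* in its first TAD and *PAPLA1*, *Rbsn-5* and *Acbp1* in its next. An antennal run of 3 at chr3L:8325001-8445000 spanned 120 kb and 23 genes, from *Cpr66Cb*, *Pex2*, *Prim1* and *Idh* through *ImpE1*, an ecdysone-inducible gene, and the 2 Jonah genes to *Exo70*, *mtrm*, *Cbl* and *Unr*. The eye list had the first 2 of its TADs and a TAD of 105 kb over the last. A second antennal run of 3, at chr2R:2225001-2325000, held no protein-coding gene and lay in the gene-poor start of 2R, with none of its TADs in the eye list.

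Further runs were chosen for description after their values were seen. At chr3R:21300001-21380000 both lists had a 45 kb TAD with *aus* beside a 35 kb TAD whose sole protein-coding gene was *mod(mdg4)*, for an insulator and BTB protein made by trans-splicing. Eye disc 1 had a TAD of 80 kb over both, and the other 4 libraries had the border, at 45 to 50 kb. At chr3R:15205001-15290000 a pair of 40 and 45 kb, with the same borders in each list, held 26 genes, among them the chaperone gene *Hsc70-4*, the heterochromatin histone methyltransferase gene *Su(var)3-9* and *Cp190*. Eye disc 3 and antennal disc 2 each had a TAD of 80 kb over that pair. At chr3R:21580001-21665000 the eye list had *InR*, the insulin receptor gene, in a 45 kb TAD beside *E2f1*, for a cell cycle transcription factor, in a 40 kb TAD. The *InR* TAD was 40, 45 and 45 kb in eye discs 1, 2 and 3 and 45 kb in antennal disc 3, while antennal disc 2 and the pooled antennal list had 105 kb there.

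**Figure D4:**
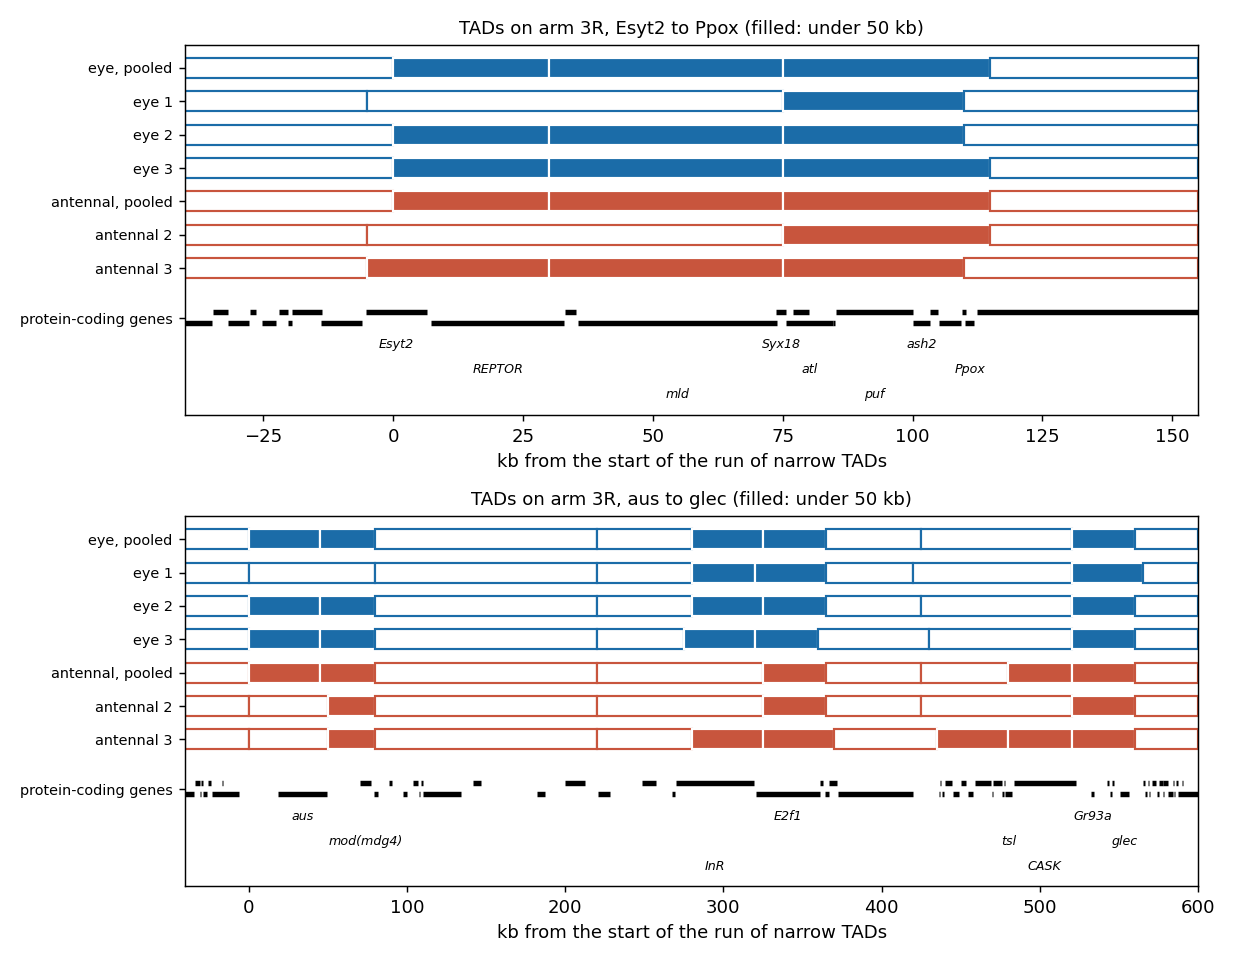
TADs of the pooled lists and the 5 libraries (eye blue, antennal red, filled where under 50 kb) over 2 stretches of 3R, in kb from the start of the run, with protein-coding genes as black bars. Above, the inner border of the *REPTOR* and *mld* TADs is missing in eye 1 and antennal 2, and below, the *E2f1* and *Gr93a* to *glec* TADs are filled in every row, while the *InR* TAD is open in the pooled antennal list and in antennal 2.

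Narrow TADs recurred between the pooled lists about as often as, or somewhat more often than, TADs in general, and this was not tested. With both borders within 5 kb, 56 of 88 eye members (63.6%) had a counterpart in the antennal list, against 50.4% of all eye TADs, and 62 of 117 antennal members (53.0%) had one in the eye list, against 46.1% of all antennal TADs. Both were narrow in 54 pairs, 31 of them with identical borders, which leaves 151 distinct narrow TADs. Of the 32 eye members without a counterpart, 30 shared one border with an antennal TAD, and 25 lay wholly within a single antennal TAD of median 110 kb. Of the 55 antennal members without a counterpart, 41 shared one border and 12 lay inside an eye TAD with neither border, and 47 lay wholly within a single eye TAD of median 120 kb. Most of the 12 with neither border lay in the first 7 Mb of 2R. A member without a counterpart in the other pooled list thus mostly shared a single border with that list. Some such members were found in a library of the other tissue, as the *InR* TAD was in antennal disc 3. The share of all TADs with a single shared border was not counted. Within the first 7 Mb of 2R, 3 of 8 eye and 4 of 15 antennal members had a counterpart, against 53 of 80 (66.3%) and 58 of 102 (56.9%) elsewhere. TADs of 50 kb had a counterpart in 71.4% of eye and 51.7% of antennal cases.

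In the libraries, 34, 74 and 57 of the 88 eye members (38.6, 84.1 and 64.8%) were found in eye discs 1, 2 and 3, and 40 and 44 (45.5 and 50.0%) in antennal discs 2 and 3. All eye TADs were found at 34.1, 76.9 and 65.6% in the eye discs and 44.5 and 37.2% in the antennal discs. The eye libraries were made into the pooled list and are not independent of it, and even so eye disc 1 held fewer of the eye members than either antennal library. The means were 62.5 ± 22.8% in eye discs (SD, n = 3) and 47.7 ± 3.21% in antennal discs (n = 2), a difference of 14.8 points (exact permutation p = 0.6, adjusted p = 0.6). It was 3.98 without eye disc 2, 26.7 without eye disc 1 and 29.0 without eye disc 1 and antennal disc 3.

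Of the 117 antennal members, 67 and 68 (57.3 and 58.1%) were found in antennal discs 2 and 3, and 27, 60 and 42 (23.1, 51.3 and 35.9%) in eye discs 1, 2 and 3. All antennal TADs were found at 63.9 and 52% in the antennal discs and 27.2, 49.4 and 38.5% in the eye discs. The antennal libraries went into the pooled antennal list, so a higher recovery there is built in, and all antennal TADs showed the same direction of the means. The antennal libraries lay above every eye library, by 20.9 points on average at 57.7 ± 0.604% (SD, n = 2) against 36.8 ± 14.1% (n = 3), with the smallest p the exact permutation test can give (p = 0.2, adjusted p = 0.467). The difference was 14.1 without eye disc 1 and 13.7 without eye disc 1 and antennal disc 3.

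**Figure D5:**
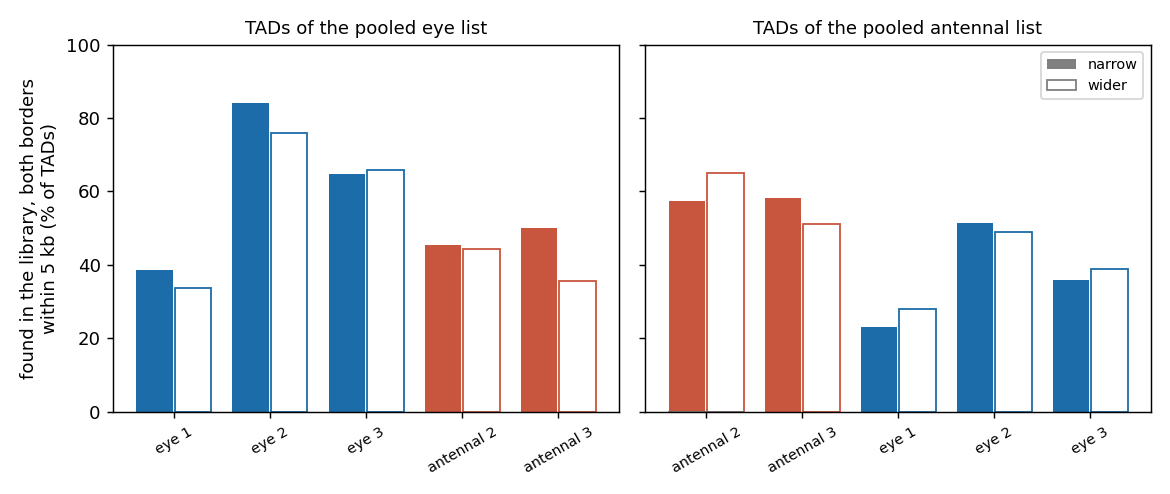
Percentage of narrow (filled) and wider (open) TADs of each pooled list found in each library with both borders within 5 kb, eye libraries in blue and antennal libraries in red. In the left panel eye 2 has the highest share of eye members at 84.1%, and in the right panel the antennal libraries, at 57.3 and 58.1%, have higher shares of antennal members than the eye libraries.

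No difference in recovery between narrow and wider TADs was separated in this set. Within each library's own tissue, the share of narrow minus that of wider TADs was 5.06, 8.05 and -0.937 points in eye discs 1, 2 and 3, and -7.69 and 7.04 points in antennal discs 2 and 3. The mean of 2.30 ± 6.59 points (SD, n = 5) was above 0 in 3 of 5 libraries (exact sign-flip p = 0.562, adjusted p = 0.6), and was -0.194 without eye disc 1 and antennal disc 3. The sign turned under some other definitions of a match, to -10.8 for a reciprocal overlap of 80%. Under that rule a shift of 1 bin is a larger part of a narrow TAD, and whether this made the turn was not tested.

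Most members were found in some but not all libraries. For the eye list 2, 12, 21, 24, 22 and 7 members were found in 0, 1, 2, 3, 4 and 5 libraries, and for the antennal list 14, 26, 24, 29, 17 and 7. Members in no library were 2 eye and 14 antennal ones, against 6.37% of all eye TADs and 12.9% of all antennal TADs. All own-tissue libraries held 20 eye and 43 antennal members, where the eye list had 3 libraries to pass and the antennal list 2. The share of all autosomal TADs that pass this rule was not counted, so these counts cannot be called high or low.

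Found in all 5 libraries and the other pooled list were 7 members of each list, against 9.94% and 9.78% of all TADs, at 8 distinct places. On 3L these were the *Hsp23* and *Hsp27* TAD at chr3L:9380001-9425000, with *eIF4E1*, *Cpr67B*, *Cpsf5* and *Atat*, which was 50, 45 and 45 kb in eye discs and 55 and 45 kb in antennal discs, and the TAD at chr3L:9700001-9745000 with *SH3PX1*, *nbs*, a DNA repair gene, and *ATPsynB*, which was 45 kb in 4 libraries and 50 kb in antennal disc 3. The antennal TAD at chr3L:10665001-10695000 with *simj* and *ND-13B* was 30, 30 and 35 kb in eye discs and 30 and 25 kb in antennal discs. On 3R the TAD at chr3R:17085001-17115000 in the eye list held *GckIII*, *cal1*, needed to load the centromeric histone, and *cher*, for filamin. The TAD at chr3R:18170001-18205000 held *wrd*, *Arp5*, *MED17* and *Ssdp*. The *E2f1* TAD at chr3R:21625001-21665000 was 45, 40 and 40 kb in eye discs and 40 and 45 kb in antennal discs, and took in nearly the whole of *E2f1*, at chr3R:21620304-21660871. The TAD of *Gr93a* to *Gr93d* and *glec* at chr3R:21820001-21860000 was 45, 40 and 40 kb in eye discs and 40 kb in both antennal discs. The last of the *Esyt2* to *Ppox* run was the remaining one.

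Some members were found in every library of their own tissue, in no library of the other and not in the other pooled list. There were 4 in the eye list, which had 3 own libraries to pass, and 9 in the antennal list, which had 2. Those libraries also went into the pooled lists. The share of all autosomal TADs that meet the same rule was not counted, so no excess can be read from these counts. With so few libraries no single TAD could be tested. Apart from the first, which is among the narrowest, those below were named after their values were seen. The eye TAD at chr2R:10535001-10560000 was 35, 25 and 25 kb in eye discs 1, 2 and 3, against 135 kb in each antennal disc library and in the pooled antennal list. It held no protein-coding midpoint and bridged an end of *lola*, at chr2R:10481894-10543291, and an end of its neighbour *psq*, at chr2R:10557888-10617280, both for BTB-domain transcription factors. The eye TAD at chr3R:9590001-9635000, with *bocks*, *Calr* and *SpdS*, was 50, 40 and 50 kb in eye discs against 80 kb in each antennal disc. The eye TAD with *nebu* at chr3L:12830001-12865000 was 35, 30 and 30 kb in eye discs against 60 kb in each antennal disc. The eye TAD with *Eno*, for enolase, at chr2L:1725001-1765000 was 45, 45 and 40 kb in eye discs against 55 kb in each antennal disc, and so passed as absent by a small margin.

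In the antennal list was the TAD with *Cap-G*, a condensin subunit gene, and *ND-MWFE* at chr2R:13135001-13170000, which was 35 kb in both antennal discs against 100 kb in each eye disc. The TAD with *Cyp6g1* and *Cyp6g2* at chr2R:12170001-12205000 was 35 and 40 kb in antennal discs against 70 kb in each eye disc. The TAD with *Gdi* at chr2L:9490001-9525000 was 35 kb in both antennal discs against 85 kb in each eye disc, and that with *Cpsf73* and *Gos28* at chr3R:18635001-18665000 was 30 kb in both against 95, 105 and 110 kb. The TAD with *Rpn3* and *hook* at chr2L:19015001-19055000 was 40 and 50 kb in antennal discs, against 55 kb in eye disc 1 and 115 and 120 kb in eye discs 2 and 3.

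The following TADs with developmental genes were also named after their values were seen, and were not chosen by the rule on tissues above. The antennal TAD at chr3R:10540001-10580000 lay wholly within *hth*, a homeodomain gene that specifies antenna and spans 132.0 kb. It was 50 kb in antennal disc 3 and 225 kb in antennal disc 2, against 145, 260 and 260 kb in eye discs, so it was held by 1 of 2 antennal libraries and was under 50 kb in the pooled list alone. The TAD with *hh* and *unk* at chr3R:23130001-23155000 was 25 kb in each pooled list, 30 and 25 kb in eye discs 1 and 2, 165 kb in eye disc 3, and 30 and 40 kb in antennal discs. The *spi* TAD at chr2L:19545001-19575000, which also held *mir-2a-1*, *mir-2a-2* and *mir-2b-2*, was 30 kb in all 3 eye discs and in antennal disc 2, and the TAD there was 145 kb in antennal disc 3 and in the pooled antennal list. *pnt*, for an ETS factor downstream of the EGF receptor, had a 40 kb antennal TAD within the gene at chr3R:23295001-23335000, which was 60 and 45 kb in antennal discs 2 and 3 against 130, 55 and 50 kb in eye discs. *aos*, for a secreted inhibitor of that receptor, lay in a 35 kb antennal TAD at chr3L:16460001-16495000, which was 35 and 50 kb in antennal discs against 70, 65 and 70 kb in eye discs. *Eip74EF*, an early ecdysone response gene, had a 40 kb TAD in each pooled list at chr3L:17560001-17600000, which was 40 kb in 4 libraries and 170 kb in eye disc 1.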

How the data were processed

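Alignment used Bowtie2 2.3.4.2 and the dm6 build, per the submitters' processing notes. For the TAD caller, its settings and its bin size nothing is stated in the sources used here. The deposited lists hold a chromosome, start and end per TAD, positions made by the authors with no score or depth, with 1 list for each library and 1 for the pooled replicates of each tissue. The bin of 5 kb was read from the positions, all multiples of it. Starts are given 1-based.

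The members and the 22 gene lists were chosen with earlier results of these data known. Gene positions were those of RefSeq on Release 6, the sequence behind dm6. The table has 17684 genes on the 6 arms, of which 13922 are protein-coding, and each was placed in a TAD by its midpoint. A TAD was found in another list where both borders lay within 1 bin. A member's width in a list is that of the TAD over the member's midpoint there. Runs were TADs with gaps of at most 1 bin.

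Libraries were compared by exact two-sided permutation over the 10 assignments of 5 libraries to 3 and 2, or over 32 sign patterns, with Benjamini-Hochberg adjustment over 7 tests. No test of this size can pass 0.05 after adjustment. P-values measure the spread between these libraries, which may be technical. The tests were checked on simulated data. A planned count of promoter motifs was not run, as no sequence was used here.

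Genes and TADs named follow a rule: in each list the 2 longest runs, the 3 members with most genes, up to 3 with none and up to 3 of 25 kb, those in every list, and up to 3 members of each gene list. Others are marked as chosen after their values were seen. Scripts ran in Python 3.11.15 with scipy 1.17.1, pandas 2.3.3 and numpy 2.4.6, and plots were drawn with matplotlib 3.10.9.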

Additional observations from a re-analysis of the deposited data

How the results depend on the processing

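Of 105 alternatives over the 7 compared results, 97 kept the direction and 8 reversed it, and none gave a p at or under 0.05. The excess of narrow over wider recovery turned to -1.86 points with narrow under 40 kb, -0.616 with the centromere-near stretches kept, -0.547 with borders within 2 bins, -10.8 with a reciprocal overlap of 80%, -4.93 with each border matched in any TAD and, chosen after seeing the data, -0.194 without eye disc 1 and antennal disc 3. The share of narrow neighbours turned to -1.55 with narrow under 40 kb and -0.0766 with narrow under 60 kb. The cause of these reversals was not tested. Leaving out each library gave -35.3 to -1.33 for the count of narrow TADs, 3.18 to 4.16 for gene density, 0.934 to 2.42 for its tissue difference, 3.98 to 26.7 and 14.1 to 28.2 points for recovery of eye and antennal members by tissue, 0.868 to 4.80 for narrow minus wider recovery and 1.34 to 2.33 for narrow neighbours. Eye and antennal libraries share the replicate numbers 2 and 3, which the labels do not tie to a shared batch. With the replicate number as a block these results were -29, 3.65, 2.25, 26.7, 14.1, 2.76 and 1.46. Same-numbered pairs shared 45.1 and 32.1% of eye TADs and other pairs 24.5 to 38.3%, so not every library matched its own number best. Leaving out the first 7 Mb of 2R, chosen after seeing the data, gave -15.5, 4.65, 1.52, 12.7, 23.7, 3.90 and 1.21. Depth is unknown, and borders are set only to 5 kb, so a width of 45 kb cannot be told from 50 kb.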

Other observations

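The libraries also listed narrow TADs that are in neither pooled list. With both borders within 5 kb, these were 84 of 123 (68.3%) in eye disc 1, 10 of 96 (10.4%) in eye disc 2 and 26 of 86 (30.2%) in eye disc 3, and 32 of 103 (31.1%) in antennal disc 2 and 62 of 137 (45.3%) in antennal disc 3. Seen in no other list at all were 60, 6 and 18 in eye discs 1, 2 and 3, and 21 and 48 in antennal discs 2 and 3. The same shares over all TADs of each library were not counted, so these counts cannot be read as a trait of narrow TADs. The libraries with the highest shares were the pair that listed no TAD on chromosome 4. Read depth, which is unknown, was not tested.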
